A study of Mus musculus with 15 samples.

Results

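The let-7 family and miR-98 were read in 17 assays, out of 584 miRNA assays spread over a pair of TaqMan real-time PCR cards. They are all assays whose name, without its number and species prefix (mmu- for mouse, rno- for rat), is let-7 with a letter from a to g or i, or miR-98. Among them, 9 read a main strand and lie on card A, which holds 375 miRNA assays, and 8 read a star strand and lie on card B, which holds 209. There is no main-strand assay of the family on card B and no star-strand assay on card A, so a difference between strands and a difference between cards cannot be told apart.

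αTC1-6 is a mouse glucagonoma line that makes glucagon, and βTC1 is a mouse insulinoma line that makes insulin. The 15 samples are 3 replicates of each of 5 conditions: untreated αTC1-6 at 24 h, untreated αTC1-6 at 48 h, αTC1-6 treated for 24 h or for 48 h with 3 inflammatory cytokines together, and untreated βTC1 at 24 h. The cytokines were TNF-α and IFN-γ, each at 1000 IU/ml, and IL-1β, at 50 IU/ml. Each condition was grown from a tumour-derived line and not from islets, and βTC1 was not treated, so the cytokine comparisons cover αTC1-6 alone. The cards read no mRNA, so the hormones that define the lines were not measured. The islet miRNA miR-375 had a mean Ct of 14.9 in untreated αTC1-6 and 13.98 in βTC1 at 24 h, where Ct is the PCR cycle at which the signal crosses a set level and a lower Ct means more RNA.

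Members of the let-7 family guide Argonaute proteins to target mRNAs through their seed, bases 2 to 8 from the 5′ end, and are known for restraining growth and for targeting messages of the insulin and IGF1 receptor pathway. The RNA-binding protein LIN28 blocks the maturation of their precursors. Each hairpin gives a 5p strand, here the main strand, and a 3p strand, the star strand, which is usually degraded when the main strand is loaded.

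The mature sequences are shown because the family is defined by them, and because they show how little separates one main-strand assay from the next. They are the RefSeq entries for mouse (GRCm38.p6), which held an entry for all 9 main-strand assays. The seed is in capitals.
let-7a-5p: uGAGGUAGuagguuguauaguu
let-7b-5p: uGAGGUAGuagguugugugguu
let-7c-5p: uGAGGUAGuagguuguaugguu
let-7d-5p: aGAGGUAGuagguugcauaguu
let-7e-5p: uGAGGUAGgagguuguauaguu
let-7f-5p: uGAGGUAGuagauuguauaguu
let-7g-5p: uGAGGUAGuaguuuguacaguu
let-7i-5p: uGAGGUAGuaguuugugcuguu
miR-98-5p: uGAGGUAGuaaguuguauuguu

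All 9 main strands share 1 seed, GAGGUAG, and all are 22 bases long. Counted from 1 at the 5′ end and with the base of let-7a first, let-7c differs from let-7a by A19G, let-7e by U9G and let-7f by G12A. Of the 36 pairs of main strands, 4 differ at 1 base, and the most distant pair differs at 6. How far an assay reads a near-identical relative was not tested, so the level of each main strand may hold signal of another.

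The star strands are shown because their seeds, unlike those of the main strands, differ between members. The assay names of let-7a* and let-7f* carry no hairpin number, so both candidate sequences are given for each, and the assay for let-7e* is named for rat while the mouse sequence is shown.
let-7a-1-3p: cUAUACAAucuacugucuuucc
let-7a-2-3p: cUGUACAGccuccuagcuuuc
let-7b-3p: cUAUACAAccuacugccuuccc
let-7c-1-3p: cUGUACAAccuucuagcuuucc
let-7d-3p: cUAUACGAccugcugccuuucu
let-7e-3p: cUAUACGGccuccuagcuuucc
let-7f-1-3p: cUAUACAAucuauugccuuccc
let-7f-2-3p: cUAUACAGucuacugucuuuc
let-7g-3p: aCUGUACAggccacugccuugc
let-7i-3p: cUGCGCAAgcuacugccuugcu

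Among the 12 star strands of the family in RefSeq there are 8 seeds. The star strand of the second let-7c hairpin has the same sequence as let-7a-1-3p, so the let-7a* assay cannot separate them. Star strands of let-7a-1, b, d, e, f-1 and f-2 begin with CUAUAC, and those of let-7a-2, c-1, g and i do not. The hairpins of let-7a-1, let-7f-1 and let-7d lie within chr13:48536012-48538272 on the minus strand, with 261 bases between the first pair and 1714 between the second. Those of let-7c-2 and let-7b lie within chr15:85706603-85707403, inside the long noncoding RNA gene Lncppara. Hairpins of let-7f-2 and miR-98 lie inside the gene Huwe1 on chromosome X, let-7g inside Wdr82 and let-7e inside Spaca6, where it neighbours miR-99b and miR-125a.

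The measured value of each assay was ΔCt, its Ct less that of miR-26a in that sample, on a log2 scale where 1 unit is 1 cycle and a higher ΔCt means less RNA. Group differences are given as log2 differences of −ΔCt, so that a negative difference means a lower level. Every one of the 17 assays passed the filter on undetermined wells (a Ct under 40 in at least 3 of 6 samples) in each comparison. On card A, 7 of the 135 wells of members were blank in the normalized table, and the non-normalized one held a Ct for each of them. In 7 other wells the tables differed by more than 0.01 cycle. Of these, 3 were replicate 3 of miR-98. Its ΔCt there was 6.18 in untreated αTC1-6 at 24 h, 6.02 in treated αTC1-6 at 24 h and 4.27 in βTC1, against 3.02, 2.21 and 2.75 from the non-normalized table.

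Among star strands, the duplicate wells of let-7b* and let-7c-1* disagreed. In each, 6 pairs of wells differed by more than 2 cycles, and the widest gaps were 17.0 cycles for let-7b* and 31.5 cycles for let-7c-1*. The let-7c-1* wells of 1 untreated 48 h sample had ΔCt values of -9.44 and 22.05, and 5 of its wells were undetermined. The other star strands read in duplicate had gaps of at most 1.63 cycles. Values of let-7b* and let-7c-1* are therefore given but carry a wide error.

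All main strands were abundant. In untreated αTC1-6 at 24 h, the mean ΔCt ran from 0.32 for let-7e to 4.41 for miR-98, or to 3.76 for let-7f with miR-98 at 3.36 from the non-normalized table, and in βTC1 from -0.26 for let-7c to 3.42 for let-7f. By mean ΔCt among the 375 assays of card A, let-7e ranked between 10 and 14 in the 5 conditions and let-7c between 8 and 25. The lowest ranks were those of miR-98, between 46 and 67, and let-7f, between 48 and 64.

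**Figure D1:**
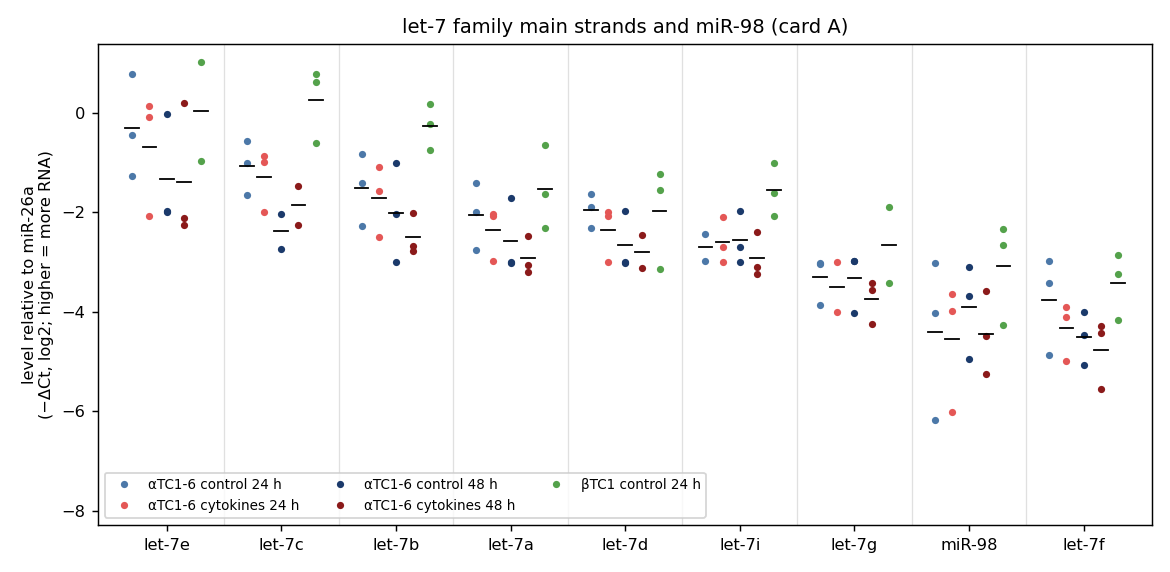
Level of each main strand relative to miR-26a (negative ΔCt, log2) in each sample, by condition; points are samples, bars are means, and members are ordered by mean level. The conditions overlap for most members, and the βTC1 samples of let-7b lie above all untreated αTC1-6 samples of 24 h.

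The order was similar in all samples. Let-7e had the lowest ΔCt of the main strands in 12 of its 14 samples and let-7c in the other 3 samples, whereas miR-98 had the highest in 9 and let-7f in 6. From the non-normalized table, these last counts were 6 for miR-98 and 9 for let-7f. Neighbours in this order overlapped in 37 of 40 cases. The order is one of assay readings, since how well each assay amplifies was not measured.

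The main strand exceeded its star strand in every sample of all 8 hairpins. The narrowest gap was that of let-7f, with a median of 2.44 cycles and a range from 0.77 to 3.87 over 15 samples. Let-7a, let-7d and let-7b followed, with medians of 3.75, 4.07 and 4.63 cycles. The gaps of let-7g, let-7i and let-7e were wider, at 8.04, 9.44 and 12.1 cycles. Of these 3 hairpins, let-7e had the lowest ΔCt of the main strand and the highest of the star strand. Let-7c had a median gap of 10.7 cycles, on the uneven wells of let-7c-1*, and its star assay reads 1 of the 2 hairpins that give let-7c.

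**Figure D2:**
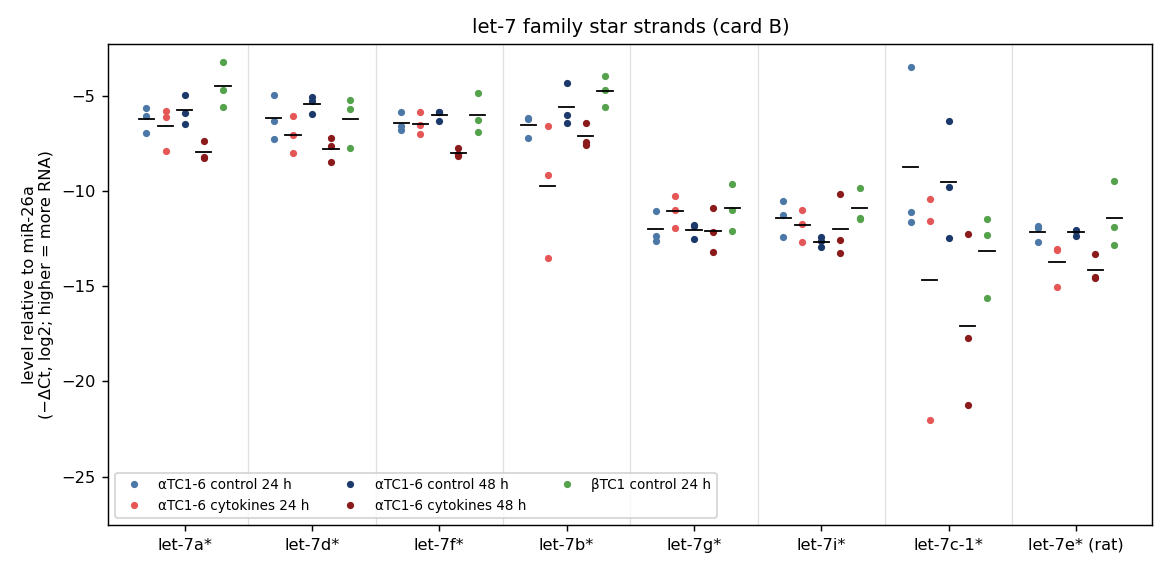
Level of each star strand relative to miR-26a (negative ΔCt, log2) in each sample, by condition; points are samples, bars are means, and members are ordered by mean level. In let-7a*, let-7d*, let-7f* and let-7e*, all 3 samples treated for 48 h lie below all 3 untreated 48 h samples, and the values of let-7c-1* scatter over more than 10 cycles.

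At steady state, main strands were mostly at a lower level in αTC1-6 than in βTC1, by less than the test could separate. The difference (αTC1-6 minus βTC1) was below 0 for 8 of 9 main strands, with a median of -0.65, and the median over the 281 assays of card A tested was -0.62. On that card, 61.6% of assays were below 0. No member had an adjusted p-value under 0.05 in the limma test, where 29.6% of all 480 assays did.

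Let-7b (mmu-let-7b) had ΔCt values of 0.84, 1.42 and 2.28 in αTC1-6 and of 0.22, -0.17 and 0.76 in βTC1. All 3 αTC1-6 samples were thus at a lower level than all βTC1 samples, as in 36.6% of the card A assays with a value in every sample. The log2 difference of let-7b was -1.24 (SE 0.56, limma adjusted p = 0.135). Let-7c (mmu-let-7c), with values of 1.00, 0.57 and 1.65 in αTC1-6 and of -0.62, -0.78 and 0.62 in βTC1, overlapped by 0.05 cycles, and its difference was -1.34 (SE 0.59, limma adjusted p = 0.128). Both are encoded by neighbouring hairpins on chromosome 15, and let-7c also by chromosome 16. With samples centred on their median in place of miR-26a, let-7b and let-7c passed the test, with adjusted p-values of 0.0198 and 0.027. Set against the U6 and snoRNA wells of card A, an alternative added after seeing the data, their differences were -0.70 and -0.79, with adjusted p-values of 0.821 and 0.721. That reference was uneven, with a mean Ct of 18.53, 14.14 and 14.60 in the 3 αTC1-6 samples. Its SD was 2.42 cycles there and 0.41 in βTC1.

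Let-7i had values of 2.43 and 2.97 in αTC1-6, where 1 well was blank, and of 1.61, 1.01 and 2.07 in βTC1. Its difference was -1.14 (SE 0.59, limma adjusted p = 0.194). These values did not overlap, but the non-normalized table gave the blank well a Ct of 20.87, with miR-26a at 18.98. With that well the lines would overlap. MiR-98, let-7g, let-7a, let-7e and let-7f had differences from -1.32 for miR-98 to -0.33 for let-7f, and let-7d one of 0.03. From the non-normalized table, that of miR-98 (mmu-miR-98) was -0.78. The ΔCt values spread widely within βTC1, and replicate 2 had the lowest of the group for every main strand. ΔCt holds the spread of miR-26a, whose Ct was 18.38, 18.74 and 17.53 in these samples. Over main strands, the SD in βTC1 was 0.47 (let-7b) to 1.40 (let-7e) for ΔCt. For Ct it was 0.05 (let-7f) to 0.55 (let-7e). Without βTC1 replicate 2, the median over main strands was -0.07, and without βTC1 replicate 3 it was -1.39.

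Star strands showed a similar pattern, with 6 of 8 below 0 and a median of -0.63, against -0.46 over the 199 assays of card B, of which 62.3% were below 0. Let-7a* (mmu-let-7a*) had ΔCt values of 5.62, 6.06 and 6.97 in αTC1-6 and of 4.70, 3.22 and 5.56 in βTC1, with no overlap between the lines and a difference of -1.72 (SE 0.77, limma adjusted p = 0.288). Let-7b* did not overlap either, at 7.20, 6.17 and 6.20 against 3.94, 4.71 and 5.61, with a difference of -1.77 (SE 0.62, limma adjusted p = 0.192). Of the card B assays, 16.5% were lower in αTC1-6 without overlap.

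After 24 h of cytokines, no member passed the test, as against 0.225% of the 445 assays tested. The main strands differed from untreated αTC1-6 by between -0.58 for let-7f and 0.10 for let-7i, with a median of -0.21, and the groups overlapped for all of them, while 9.72% of card A assays were lower and 3.7% higher without overlap. The only member without overlap was let-7e*. Its ΔCt was 11.93, 11.85 and 12.69 in untreated and 13.11, 13.04 and 15.05 in treated cells, so that all treated samples were lower in level, as were 2.29% of card B assays. The log2 difference of let-7e* was -1.58 (SE 0.68, limma adjusted p = 0.806). Star strands were below 0 in 7 of 8 cases, with a median of -0.63, while the median over the 191 assays of card B was 0.21 and 37.7% of them were below 0. Let-7a*, let-7d*, let-7f* and let-7i* were at -0.37, -0.87, -0.05 and -0.40, and let-7b* and let-7c-1*, with their uneven wells, at -3.22 and -5.94. Let-7g* had the highest value among star strands, 0.94 (SE 0.65, limma adjusted p = 0.914).

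After 48 h of cytokines, the main strands again stayed close to untreated αTC1-6. Their differences ran from -0.53 for miR-98 to 0.52 for let-7c, with a median of -0.34, beside -0.33 over the 342 assays of card A. That of let-7c rested on 2 samples a group. From the non-normalized table, which held a Ct for the blank wells, all 9 main strands were below 0. Let-7a had ΔCt values of 1.71, 3.00 and 3.03 in untreated and of 2.48, 3.07 and 3.21 in treated cells, and let-7e of 0.04, 1.98 and 2.01 against -0.19, 2.25 and 2.12. In both, the first replicate was highest in level in either group and the groups overlapped, as they did for all main strands, while 15.5% of card A assays were lower and 2.79% higher without overlap. The sign of these small differences depended on the reference, with a median over main strands of 0.34 when samples were centred on their median and of 0.23 against U6 and snoRNA wells. Without untreated replicate 1 it was 0.02.

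Star strands read at a lower level at 48 h of cytokines in 7 of 8 cases. No member passed the adjusted threshold, where 0.562% of the 534 assays did. The median over star strands was -1.97, and it was -0.83 over the 192 assays of card B, of which 82.3% were below 0. At an unadjusted p-value under 0.05, 5 star strands were lower, let-7a*, let-7c-1*, let-7d*, let-7e* and let-7f*, as were 14.1% of card B assays, and 4 with wells of a Ct under 12 left out.

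Let-7f*, the star strand of a hairpin with copies on chromosomes 13 and X, had ΔCt values of 5.84, 6.31 and 5.84 in untreated and of 7.75, 8.15 and 8.03 in treated cells. The groups were 1.44 cycles apart at their nearest samples. The log2 difference of let-7f* was -1.98 (SE 0.31, limma adjusted p = 0.117). Let-7d* had values of 5.08, 5.96 and 5.29 in untreated and of 8.47, 7.20 and 7.63 in treated cells, with a log2 difference of -2.32 (SE 0.48, limma adjusted p = 0.120). Let-7a* had values of 4.95, 6.47 and 5.88 in untreated and of 7.36, 8.20 and 8.25 in treated cells, with a log2 difference of -2.17 (SE 0.53, limma adjusted p = 0.133). The 3 star strands that can come from the chromosome 13 cluster differed by between -1.98 and -2.32. Those from elsewhere included let-7e* (chromosome 17) at -1.96 and let-7b* (chromosome 15) at -1.55, so a similar size was not particular to that cluster.

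Let-7e*, from the chromosome 17 cluster, had values of 12.38, 12.04 and 12.08 in untreated and of 14.52, 13.29 and 14.59 in treated cells. Its groups did not overlap, and the log2 difference was -1.96 (SE 0.46, limma adjusted p = 0.133). Without overlap, 21.1% of the card B assays were lower in treated cells. Let-7b* had values of 4.31, 6.42 and 6.01 against 6.40, 7.41 and 7.57, which overlapped by 0.02 cycles, and a difference of -1.55 (SE 0.70, limma adjusted p = 0.366). Let-7c-1* had a difference of -7.54 (SE 2.83, limma adjusted p = 0.311), with 2 undetermined wells among treated and 1 among untreated samples. That untreated sample also held the well with a ΔCt of -9.44. With wells of a Ct under 12 left out, its undetermined well stood alone, and the difference was -2.29 (limma adjusted p = 0.712). With each replicate left out in turn, the difference lay between -9.96 and -5.45.

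Let-7g* and let-7i* were apart from the rest. Their ΔCt was 11.78, 12.51 and 11.81 for let-7g* in untreated cells and 13.18, 12.13 and 10.91 in treated cells, a difference of -0.04 (SE 0.67). For let-7i* it was 12.64, 12.93 and 12.41 in untreated and 10.14, 13.23 and 12.55 in treated cells, a difference of 0.68 (SE 0.88), on 1 treated sample that was high in level. By sequence, the 5 assays whose mouse star strand begins with CUAUAC in at least 1 candidate hairpin had differences from -2.32 to -1.55, whereas the 3 others had -7.54 (-2.29 without the well named above), -0.04 and 0.68. This grouping was chosen after the values were seen.

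**Figure D3:**
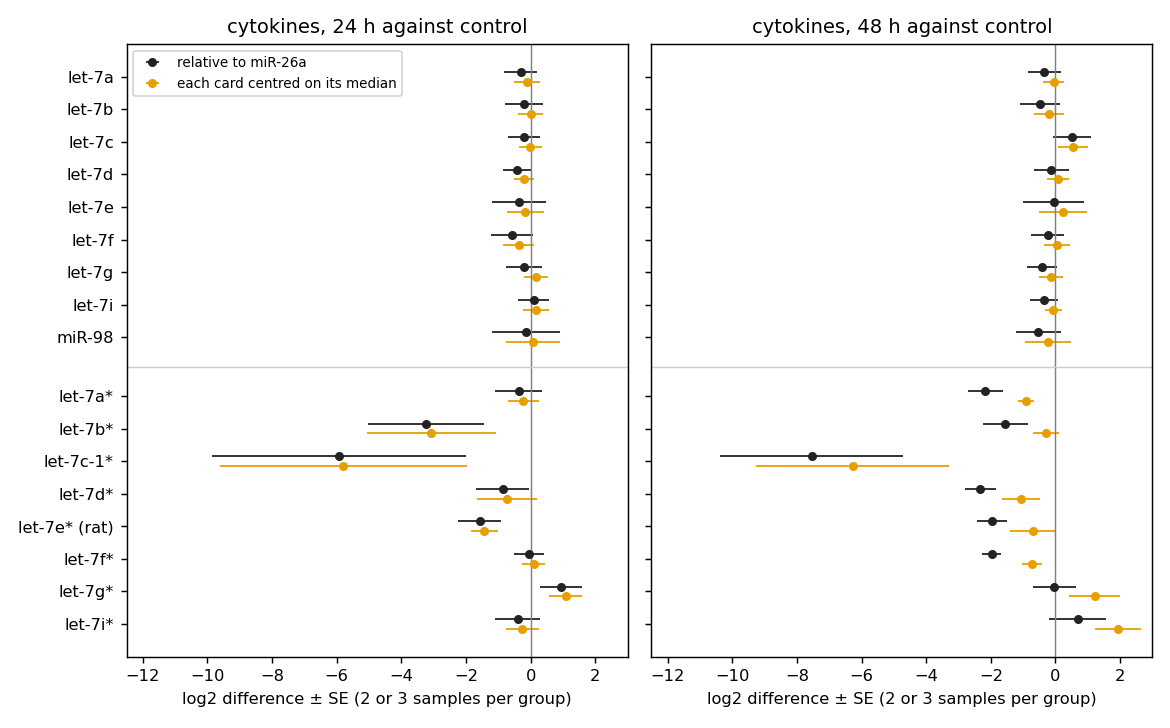
Log2 difference (treated minus untreated αTC1-6) with its SE for each member at 24 h and 48 h, relative to miR-26a (black) and with each card centred on its own median (orange); main strands are above the line and star strands below it. At 48 h, main strands lie around 0, let-7a*, let-7d*, let-7e* and let-7f* lie near -2 relative to miR-26a, and centring card B moves them to between -1.06 and -0.70.

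Card B moved as a whole at 48 h. The mean Ct of its median assay was 26.34 in untreated and 27.49 in treated cells, 1.15 cycles later, while card A was 0.36 cycles later and miR-26a, read on card A, 0.09 cycles earlier. The U6 and snoRNA wells of card B were 0.62 cycles later. With each card centred on its median, an alternative added after seeing the data, the differences were -0.91 for let-7a*, -1.06 for let-7d*, -0.70 for let-7e* and -0.72 for let-7f*. Their adjusted p-values in limma were then between 0.373 and 0.668. Let-7i*, at 0.68 relative to miR-26a, was then at 1.94, and the median over star strands was -0.71, with 0.43 over the tested assays of card B. The part of the card in these differences was not tested beyond this, and fewer cells and less RNA per cell cannot be told apart in such samples.

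The contrast of main over star strand within each sample does not depend on miR-26a. At 48 h, let-7a had a contrast of 2.85 to 3.47 cycles in untreated and of 4.87 to 5.14 in treated cells, a rise in the mean of 1.83. Those of let-7f, let-7b and let-7d were 1.74, 1.06 and 2.27 higher in treated cells, also without overlap. For let-7d this rested on 2 treated samples, since 1 main-strand well was blank. Let-7c was 7.44 higher with 2 samples a group, and an untreated one held the well with a ΔCt of -9.44. With wells of a Ct under 12 left out, an alternative added after seeing the data, let-7c was at -0.43 with overlap. In that setting the undetermined duplicate of the well stood alone. Without that whole sample, let-7c was at 6.04. Let-7e was 1.92 higher with overlap, whereas let-7g and let-7i were at -0.38 and -1.03. The exact permutation test, two-sided, gave p = 0.1 for let-7a, let-7b, let-7d and let-7f, the smallest that 3 against 3 samples allow, and 0.356 after Benjamini-Hochberg adjustment over 32 contrasts.

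The contrast was higher without overlap in 5 of 8 let-7 hairpins, or 4 without the let-7c well. Among other hairpins with a Ct on both strands in every sample it was so in 9 of 53, or 17.0%, and among the 6 let-7 hairpins that met the same condition in 3. The median difference was 1.78 for let-7 hairpins and 0.52 for the others. With each card centred, the medians were 0.99 and -0.27. Then 2 of 8 let-7 hairpins, let-7a and let-7c, were higher without overlap and let-7i was lower. Of the 53 others, 2 (3.77%) were higher and 4 lower. Among the 6 let-7 hairpins with a Ct on both strands in every sample, 1 was higher and 1 lower. In a limma fit over 79 hairpins, added after seeing the data, let-7a, let-7b, let-7d and let-7f had unadjusted p-values of 0.00393, 0.0418, 0.0427 and 0.0284, and 8.86% of the hairpins had a higher contrast at that threshold. After adjustment 0.0% passed, with 0.285 the lowest adjusted p-value among let-7 hairpins. With the replicate block, let-7a, let-7b, let-7e and let-7f had unadjusted limma p-values of 0.00966, 0.0352, 0.0246 and 0.0104, let-7d had 0.107, and the share of all hairpins was 16.5%.

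**Figure D4:**
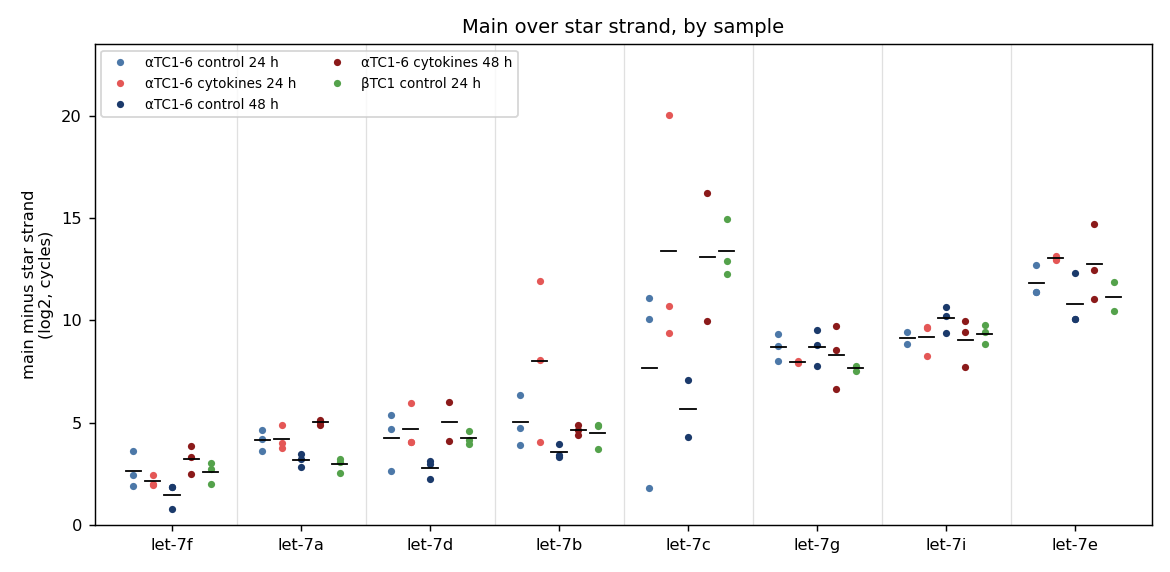
Main minus star strand (log2, cycles) for each of the 8 let-7 hairpins in each sample, by condition; points are samples and bars are means. For let-7f, let-7a, let-7d (2 treated samples) and let-7b, samples treated for 48 h lie above the untreated 48 h samples, and let-7g and let-7i overlap.

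At 24 h of cytokines, the contrasts went both ways. Let-7e was 1.21 higher than in untreated cells, without overlap. Let-7g was 0.75 lower without overlap on 2 treated samples, the highest at 8.01 against 8.04 for the lowest untreated one. With each card centred, let-7g overlapped. Of 38 other hairpins with a Ct on both strands in every sample, which let-7g did not have, 0.0% were higher and 2.63% lower without overlap. Let-7b and let-7c were 3.02 and 5.72 higher with overlap, on their uneven star wells, and the median was 0.26 over let-7 hairpins and -0.30 over the others. Between the lines at steady state, let-7g was 1.06 higher in αTC1-6 without overlap on 2 βTC1 samples, and it overlapped with each card centred. From the non-normalized table, which gave the blank βTC1 well a Ct, the difference of let-7g was 0.05. Let-7a was 1.20 higher without overlap, beside 17.1% of 41 other hairpins with a Ct on both strands in every sample. Let-7c was lower without overlap, at -5.73, beside 12.2% of them. The limma p-value of let-7a there was 0.0414 unadjusted and 0.199 adjusted, and the median over let-7 hairpins was 0.30. In untreated αTC1-6 the contrast was lower at 48 h than at 24 h in 7 of 8 hairpins, with a median of -1.09 against -0.23 over 48 other hairpins. Without the let-7c well, its undetermined duplicate stood alone, and the contrast was lower in 6 of 8. Without that whole sample, let-7c was still lower, at -0.58. The contrast did not overlap in let-7a and let-7f, as in 2.08% of the other hairpins. With each card centred, the median was -0.77, the groups overlapped in let-7a and let-7f, and let-7i was higher without overlap on 2 samples at 24 h. Of the 48 other hairpins with a Ct on both strands in every sample, which let-7i did not have, 4.17% were then higher. The untreated 48 h samples of this comparison over time are also the base of the cytokine contrast at 48 h. Set against the untreated 24 h samples, a comparison that also differs in time, the treated 48 h samples overlapped in 7 of 8 hairpins. The exception was let-7a, at 4.87 to 5.14 against 3.62 to 4.64, while let-7b was at 4.38 to 4.88 against 3.92 to 6.36.

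Without treatment, no member passed the test between 48 h and 24 h, beside 5.93% of the 489 assays tested. The main strands had a median difference of -0.52, and let-7e was at -1.02. Let-7c had values of 2.73 and 2.03 at 48 h, where 1 well was blank, with a difference of -1.30 (SE 0.53, limma adjusted p = 0.526). These 2 samples were lower in level than all 24 h samples. In the non-normalized table the blank well had a Ct of 18.94, earlier than miR-26a at 18.98, so with it the groups would overlap. From that table the lowest difference of any main strand was -1.02. On card A, 3.7% of assays with a value in every sample were lower at 48 h without overlap. Star strands had a median of 0.20. Let-7i* did not overlap, at 10.53, 11.28 and 12.40 at 24 h and 12.64, 12.93 and 12.41 at 48 h, the nearest samples being 0.0067 cycles apart, and its difference was -1.25 (SE 0.56, limma adjusted p = 0.869). Of the card B assays, 3.35% were lower at 48 h without overlap.

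The cytokine effect at 48 h was also set against that at 24 h, from the same 12 αTC1-6 samples. No member passed, and 0.21% of the 477 assays did. Let-7f*, at -0.05 after 24 h and -1.98 after 48 h, had a difference between the effects of -1.93 (SE 0.53, unadjusted p = 0.00528 and adjusted p = 0.336 in limma). It was the only member with an unadjusted p-value under 0.05 here, and 7.33% of card B assays had one with a difference below 0. Relative to miR-26a, the difference between the effects was -1.80 for let-7a*, -1.46 for let-7d* and -0.39 for let-7e*. With each card centred, it was -0.56 for let-7f*, -0.42 for let-7a* (mmu-let-7a*), -0.09 for let-7d* (mmu-let-7d*) and 0.98 for let-7e* (rno-let-7e*). The median over star strands was -1.22, with -1.01 over card B, and that over main strands was -0.03.

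Several let-7 genes share a primary transcript with miR-99, miR-100 and miR-125 members, which were read for comparison. Next to let-7e, miR-99b and miR-125a-5p read within the range of the let-7 main strands. Their mean ΔCt lay between 1.37 and 1.95 for miR-99b and between 2.10 and 2.76 for miR-125a-5p over the 5 conditions. MiR-99a, the neighbour of let-7c-1, was undetermined in all samples with a value apart from 1 treated for 48 h, with a ΔCt of 15.1. MiR-100, the neighbour of let-7a-2, was undetermined in all but 2 treated 48 h samples. The tables differed here, since the non-normalized one gave a Ct for miR-99a in 2 treated 24 h samples and 1 untreated one, and for both miRNAs in 2 βTC1 samples, with 24.3 and 23.8 as the lowest. The levels of both in βTC1 are therefore uncertain.

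MiR-125b-5p, which comes from the clusters of let-7a-2 and let-7c-1, differed between the lines where no let-7 main strand passed the test. Its ΔCt was 10.97, 10.41 and 10.97 in untreated αTC1-6 at 24 h and 6.57, 6.72 and 7.79 in βTC1, a log2 difference of -3.76 (SE 0.52, limma adjusted p = 0.00197). It was 9.10, 9.48 and 10.01 after 24 h of cytokines. At 48 h it was 11.01, 11.94 and 10.98 in untreated and 9.49, 10.26 and 9.90 in treated cells. The treated samples were higher in level without overlap at both times, by 1.25 and 1.43, with limma adjusted p-values of 0.65 and 0.436. Let-7c differed by -0.21 at 24 h and by 0.52 at 48 h, the latter on 2 samples a group because of blank wells. From the non-normalized table, which held a Ct for those wells, the highest main-strand difference at 48 h was -0.05.

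The profile of the family over the 15 samples was described by the mean of let-7a, let-7b, let-7f and miR-98, the main strands with a Ct in every sample, after centring each sample on its median. Of 268 other assays, those most like it were miR-338-3p, miR-96, miR-701, miR-153 and miR-181a-1*, with Pearson's r from 0.72 to 0.82. Star strands, without let-7c-1*, had r from -0.14 for let-7d* to 0.69 for let-7a*. The main strands in the mean had r from 0.58 for let-7f to 0.81 for let-7b, so let-7a* lay within their range. Whether star strands were less like the profile than other assays was not tested, since the assays named were picked for their high r. The mean also held the miR-98 wells that differed between the tables. The samples share their cell line, time and replicate number, so these values are a description.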

How the data were processed

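MiRNAs were measured by real-time PCR in 15 samples, 3 independent replicates of each of 5 conditions. The authors deposited Ct values as non-normalized scores, and ΔCt values, which are log2 values relative to miR-26a. Relative quantities, ratios equal to 2 to the power of the negative ΔCt, were deposited beside them. The methods name multiple reference genes, but ΔCt of miR-26a is 0 in all samples. The deposited table of the authors' fold changes was not used.

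Ct values were recovered from ΔCt, with undetermined wells at 40 and blank wells left out, and the duplicate wells of card B were averaged. Ct of miR-26a lay between 16.975 and 18.983. Per sample, 214 to 337 assays of card A and 174 to 191 of card B had a Ct, which with 3 replicates limits the precision.

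Each of the 5 comparisons was fitted over all assays with limma 3.58.1 in R 4.3.3 (two-sided, eBayes, Benjamini-Hochberg within each card, threshold 0.05) and tested on simulated data. Main minus star strand was compared by exact permutation tests in Python 3.11.15. The named miRNAs are all members, miRNAs of the same clusters and the 5 assays most like the main strands. Same-numbered samples deviated together in the cytokine comparisons (Pearson's r from 0.276 to 0.477 at 24 h and from 0.259 to 0.443 at 48 h over 279 assays) but not in all pairs of the others, so replicate numbers were taken to pair the samples there, as an alternative. Alternatives concerned the reference, filter, undetermined and duplicate wells, source table, adjustment, samples fitted, block and prior variance. Alternatives that treat each card by itself or leave out wells with a Ct under 12, and the fit over hairpins, were added after seeing the data. Members and lists were chosen with earlier results of these data known.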

Additional observations from a re-analysis of the deposited data

How the results depend on the processing

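No member passed an adjusted p-value of 0.05 under any alternative in the cytokine comparisons at 24 h and 48 h, in their difference or in untreated cells over time, with a range of 0 to 0 when each replicate was left out. At steady state, 2 members, let-7b and let-7c, passed with samples centred on their median, and 1, let-7c, with the 48 h controls (-2.64, limma adjusted p = 0.0398). The call with the 48 h controls rested on 2 of their 3 samples. The non-normalized table gave the blank well of the other a Ct of 18.94, beside 18.98 for miR-26a. The cause of these calls was not tested. With the replicate block the count stayed at 0 in all 5 comparisons, and at 48 h of cytokines the differences of let-7a*, let-7d*, let-7e* and let-7f* had adjusted p-values of 0.107, 0.114, 0.107 and 0.105. For these 4 star strands, the lowest adjusted p-value over 22 alternatives was 0.0512 and the highest 0.916. They were below 0 in all of these, between -2.61 and -0.70, and their weakest values came from centring each card. The median contrast of main over star strand, with each replicate left out in turn, lay between 1.25 and 1.93 at 48 h, 0.00 and 0.64 at 24 h, -0.18 and 0.84 between the lines and -1.39 and -0.72 over time. In all it moved by less than the SD between replicates of each sample's median over hairpins, which was 0.59 to 1.47 by condition. That SD is a wide measure, since blank wells change which hairpins enter the median. The median over main strands changed sign at 48 h with another reference and fell to 0.00 at steady state with each card on its own U6 and snoRNA wells. On card A, these wells had an SD of 2.42 cycles in untreated αTC1-6 at 24 h. The median over star strands in the difference of effects was 0.15 with each card centred. A median over main-strand members in place of their mean was not run, since the main strand of every star assay is on the cards. The limit in all comparisons is 3 replicates, and undetermined or uneven wells limit let-7b* and let-7c-1*.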
